A study of Mus musculus with 10 samples.

Results

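Hox genes encode homeodomain transcription factors that give cells along the body axis their positional identity. Their RNA was examined in whole kidneys of wild-type mice that had received quinolinic acid at 0.5 g/L in the drinking water, or vehicle. Quinolinic acid is a product of tryptophan breakdown and an NMDA receptor agonist. Tissue was collected on day 14, and each group has 5 mice and 5 libraries, all with the same batch label. Both groups were otherwise alike in the labels, and strain, sex, age and any induced kidney injury are not given in the sources used here. The Hox genes were taken by name: protein-coding genes of GENCODE vM21 called Hoxa, Hoxb, Hoxc or Hoxd with a number. The family itself was picked with earlier results of these data known. GENCODE holds 39 genes with such names, and 36 of them could be matched to the authors' deposited table, out of 27876 gene symbols. Hoxb13, Hoxc12 and Hoxd12 were not analysed here. Of the 79 deposited transcripts of these 36 genes, the transcript with the highest mean level stands for each gene.

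Mammalian Hox genes lie in 4 clusters that arose by duplication, so a gene has relatives of the same number, its paralog group, in the other clusters. Low-numbered genes sit at the 3′ end of a cluster and are used towards the head, and high-numbered genes sit at the 5′ end and are used towards the tail. In the mouse the genes of paralog group 11 are known from combined knockouts to be needed for the metanephric kidney to form, and the Hoxb7 promoter is widely used to drive transgenes in the ureteric bud and collecting duct. In mm10 coordinates the Hoxa cluster spans chromosome 6 from 52155590 to 52260880, and Hoxb spans chromosome 11 from 96194316 to 96368256. Hoxc lies on chromosome 15 from 102921103 to 103036852, and Hoxd on chromosome 2 from 74668310 to 74765142.

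The source is the authors' deposited table, a finished edgeR likelihood-ratio comparison, so no value of a single mouse or library depth can be given. Its header does not say which group is on top of the ratio, so every sign below is as deposited and carries no direction relative to quinolinic acid. The log2 fold change is the base-2 logarithm of the ratio of the groups. Intervals of 95% are approximate, computed here from the deposited log2 fold change and likelihood ratio, and a gene was called at an adjusted p under 0.05. Kidney identity was clear from its markers, since the proximal tubule gene Slc34a1 had 1430 CPM and the thick ascending limb gene Umod 1274 CPM in the authors' deposited table. CPM is a read count scaled to the size of its library. In whole tissue, fewer cells of a type and less RNA per cell cannot be told apart.

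Most Hox genes were transcribed in these kidneys, with most of the summed level in the middle paralog groups. In the authors' deposited table, 28 of the 36 had a mean of at least 1 CPM, 3 lay from 0.1 to 1 CPM and 5 lay under 0.1 CPM. To compare genes, the mean CPM over all libraries of both groups was divided by the length of the transcript in kilobases. By that measure the genes of groups 6 to 10, which number 15, held 77.9% of the summed Hox level. Of the 12 genes above 5 CPM per kb, 11 were in groups 6 to 10, and the other was Hoxb2. With the longest coding transcript of each gene in place of the most abundant one, 10 of the 11 genes above that level were in groups 6 to 10. The order is a description, since the spread between mice is not known and neighbours in it cannot be ranked firmly.

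Hoxd8, the gene just 3′ of Hoxd9, stood highest, at 54.8 CPM in the authors' deposited table and 20.8 CPM per kb. That exceeded the level per kb of 91.5% of all protein-coding genes of the table. Below it stood Hoxa7 with 14.1 CPM per kb, Hoxb7 with 12.0, Hoxb6 with 10.2 and Hoxd9 with 10.1. The place of Hoxa7 rests on a transcript annotated for nonsense-mediated decay, and by its longest coding transcript, at 3.58 CPM per kb, it ranked 12 among the members. A middle tier was formed by Hoxb8 at 8.26 CPM per kb, Hoxa10 at 8.06, Hoxa9 at 7.57, Hoxb2 at 7.53, Hoxb9 at 6.94, Hoxd10 at 6.10 and Hoxc10 at 5.54. Every measured member of group 10 belonged to it, in contrast to group 9, where Hoxc9 reached only 0.926 CPM per kb.

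Group 11, the kidney-forming group of the embryo, was lower. Hoxa11 had 1.51 CPM per kb, Hoxd11 0.910 and Hoxc11 0.506, and their deposited means were 3.44, 3.07 and 1.02 CPM by the authors' deposited table. Group 13, which patterns the digits and caudal structures such as the external genitalia, was close to the lowest value of the table. Hoxd13, Hoxc13 and Hoxa13 were listed at 0.0334, 0.0314 and 0.0201 CPM in the authors' deposited table, whose lowest value is 0.0201 CPM. The median of the group was 0.0127 CPM per kb, against 0.910 for group 11 and 6.10 for group 10, so the medians stepped down towards the 5′ end.

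Levels were also low at the 3′ end in group 1, which patterns the hindbrain. Hoxb1 was listed at 0.0295 CPM and Hoxd1 at 0.0381 CPM per the authors' deposited table. Groups 3, 4 and 5 had intermediate medians, 1.84, 1.81 and 2.22 CPM per kb. Among them Hoxb4 stood at 3.34, Hoxa5 at 3.31, Hoxb3 at 3.04, Hoxd4 at 2.52 and Hoxd3 at 1.84 CPM per kb. Hoxa3 had 1.74, Hoxc4 1.10 and Hoxa4 0.695 CPM per kb. Hoxb5 had 2.22 and Hoxc5 1.84 CPM per kb, close to the 1.81 of Hoxc8, the least abundant group 8 gene. These values rest on transcripts not annotated as coding. By the longest coding transcript Hoxb5 had 3.01, Hoxc5 only 0.327 and Hoxc8 1.65 CPM per kb. Hoxa2 (0.900 CPM) and Hoxa6 (0.313 CPM) also lay under 1 CPM in the authors' deposited table. Hoxa6, at 0.358 CPM per kb, lay below Hoxa5 and Hoxa7 on its flanks and below its relatives Hoxb6 and Hoxc6, of which Hoxc6 had 3.29 CPM per kb.

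By cluster, Hoxb held 35.9% of the summed level per kb, Hoxd 28.4%, Hoxa 25.6% and Hoxc 10.1%. The median gene had 6.94 CPM per kb in Hoxb, 2.18 in Hoxd, 1.51 in Hoxa and 1.45 in Hoxc. With the longest coding transcripts the Hoxc median was 0.803 CPM per kb, and the other medians did not move. In Hoxb, Hoxb2 to Hoxb9 lay between 2.22 and 12.0 CPM per kb, and Hoxb1 at 0.0141. In Hoxc a single gene, Hoxc10, exceeded 5 CPM per kb.

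**Figure D1:**
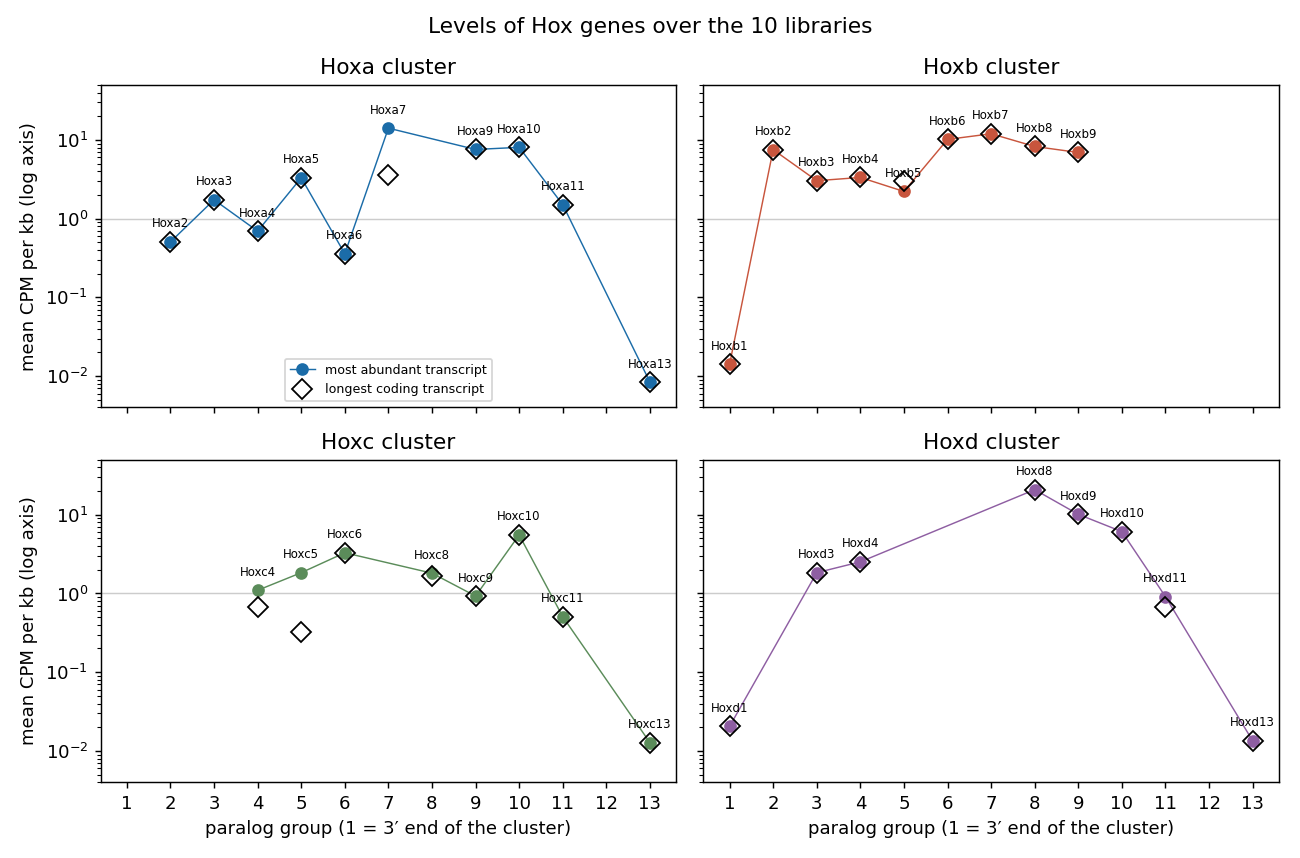
Mean levels of Hox genes over the 10 libraries, both groups together, in CPM per kb of transcript on a log axis, by paralog group and with 1 panel per cluster. Filled circles are the most abundant transcript and open diamonds the longest coding transcript. Levels peak in groups 6 to 10 (Hoxd8 at 20.8) and the group 13 genes lie near 0.01, while Hoxa7 and Hoxc5 are the genes whose symbols separate most.

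The promoters of Hoxd9 and Hoxd13 are shown because the pair are in the same cluster near opposite ends of the level order. Each runs from 250 bases before to 50 bases after the RefSeq start (GRCm38.p6, + strand), chr2:74697513-74697812 for Hoxd9 and chr2:74667975-74668274 for Hoxd13. Capitals mark CpG dinucleotides, the base pair step that can carry DNA methylation and that is dense in CpG islands.
Hoxd9: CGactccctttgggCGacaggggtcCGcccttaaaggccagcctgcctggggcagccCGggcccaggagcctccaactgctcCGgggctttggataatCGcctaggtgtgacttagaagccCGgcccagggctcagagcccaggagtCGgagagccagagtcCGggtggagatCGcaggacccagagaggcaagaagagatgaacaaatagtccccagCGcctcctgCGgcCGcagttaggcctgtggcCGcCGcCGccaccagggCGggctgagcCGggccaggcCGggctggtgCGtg
Hoxd13: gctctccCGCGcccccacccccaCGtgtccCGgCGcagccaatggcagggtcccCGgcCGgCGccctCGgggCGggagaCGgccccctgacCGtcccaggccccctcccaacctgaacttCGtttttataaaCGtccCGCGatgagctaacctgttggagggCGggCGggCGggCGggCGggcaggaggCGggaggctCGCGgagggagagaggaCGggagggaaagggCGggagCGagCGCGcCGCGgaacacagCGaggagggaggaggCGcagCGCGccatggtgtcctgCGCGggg
The Hoxd9 window holds 20 CpG and the Hoxd13 window 37. Across the 23 windows of the 21 Hox genes that RefSeq's table covers, the median was 15 CpG (range 4 to 45), against 7 over all 32851 windows. The Hoxa13 window had the most, 45, and the Hoxd8 window 6, where Hoxd8 was the most abundant member and Hoxa13 the scarcest. The Hoxd8 window (chr2:74704365-74704664) ends before the leading Hoxd8 transcript starts, at 74704905. It holds the start of another Hoxd8 transcript, at 74704615, so its CpG count and the Hoxd8 level belong to different transcripts. The TATA box letters TATAAA, on either strand, were found in 4 of the 23 Hox windows, those of Hoxb8, Hoxa10, Hoxd4 and Hoxd13, and in 13.6% of all windows. The PBX and HOX pair motif TGATTNAT, on either strand, was found in 2, of Hoxa2 and Hoxd11, and in 3.22% of all windows. A match is a description of letters and not a site.

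Paralogs resemble each other most in the homeobox, the stretch that codes for the DNA-binding homeodomain, and counting has to tell them apart there. The 4 genes of group 9 are shown over 60 coding bases that span the start of the homeobox. Besides group 4, it is the one group measured in every cluster at over 1 CPM. Bases are on the strand of each gene in GENCODE vM21 (GRCm38). The windows are chr6:52224397-52224456 (-), chr11:96274650-96274709 (+), chr15:102983921-102983980 (+) and chr2:74699206-74699265 (+). Capitals mark the 15 positions at which the 4 genes are not all alike.
Hoxa9: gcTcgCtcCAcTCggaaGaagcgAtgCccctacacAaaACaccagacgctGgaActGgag
Hoxb9: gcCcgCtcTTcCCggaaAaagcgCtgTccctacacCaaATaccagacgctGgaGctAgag
Hoxc9: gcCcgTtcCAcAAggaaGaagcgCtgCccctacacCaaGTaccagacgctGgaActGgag
Hoxd9: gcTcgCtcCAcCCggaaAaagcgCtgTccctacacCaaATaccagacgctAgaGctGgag
The other 45 positions are identical in all 4. Hoxb9 differs from Hoxd9 at 5 positions of this window, Hoxa9 at 8 and Hoxc9 at 9, and Hoxb9 and Hoxd9 share a run of 40 identical coding bases. Among all 630 pairs of Hox coding sequences the longest shared run was 52 bases, between Hoxa6 and Hoxb4, and it was the only one of 50 or more. Runs of at least 30 bases joined 21 pairs. Nothing in the sources used here gives the read length, so whether reads inside such runs were shared or dropped is unknown.

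No Hox gene passed the test between kidneys of mice given quinolinic acid and kidneys of mice given vehicle. In the authors' deposited table, 0 of the 36 genes had an adjusted p under 0.05 in edgeR's likelihood-ratio test, where 0.0215% of all 27876 genes and 0.0141% of all transcripts did. At an adjusted p under 0.1 it was again 0, against 0.0258% of all transcripts. At an unadjusted p under 0.05 the count was also 0 of 36, against 5.12% of all genes, and the smallest p was 0.112, of Hoxa5. Of the 28 genes of at least 1 CPM the count was 0 as well, against 4.09% of the 13115 genes at that level. With the adjustment taken over genes it stayed at 0.

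The intervals bound the size of any difference. All 28 included 0, which restates that no unadjusted p was under 0.05, since interval and p come from the same likelihood ratio. For 22 of them (78.6%) the interval lay within a 1.5-fold difference in either direction, which held for 84.7% of all genes of at least 1 CPM. The tightest was that of Hoxc10, whose interval ended at a 1.21-fold difference, and the widest that of Hoxc11, at 1.79-fold. The other 5 that reached past 1.5-fold were Hoxa4, Hoxa5, Hoxa11, Hoxb5 and Hoxd11. Hoxc5 is among the 22 through a transcript not annotated as coding. The interval of its coding transcript, at 0.955 CPM, ran from -0.03 to 0.75 in log2, and 1.5-fold is 0.585. For the 12 genes of at least 10 CPM every interval stayed within 1.5-fold. Adjusted p-values of the 28 genes ran from 0.794 to 1.00.

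**Figure D2:**
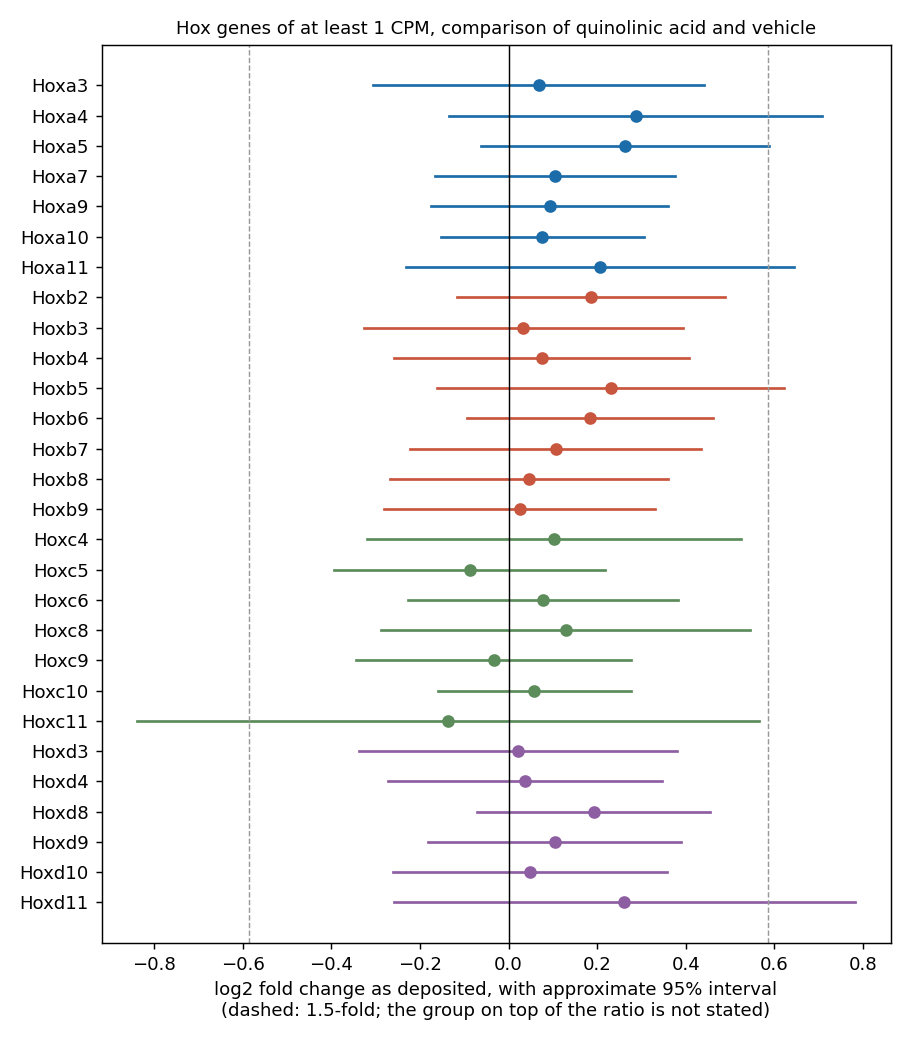
Deposited log2 fold change (points) and approximate 95% interval (lines) of the 28 Hox genes of at least 1 CPM, in the comparison of kidneys of quinolinic acid and vehicle mice, with 1 colour per cluster. The dashed lines mark 1.5-fold. Every interval crosses 0, and 22 of 28 stay between the dashed lines.

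Groups 9 and 10, at the 5′ side of the abundant band, had small differences with narrow intervals. The log2 fold change was 0.09 for Hoxa9 (95% interval -0.18 to 0.36, p = 0.499), 0.02 for Hoxb9 (-0.28 to 0.33, p = 0.874), -0.03 for Hoxc9 (-0.35 to 0.28, p = 0.830) and 0.10 for Hoxd9 (-0.18 to 0.39, p = 0.478) by the authors' deposited table. In group 10 it was 0.08 for Hoxa10 (-0.15 to 0.30, p = 0.518), 0.06 for Hoxc10 (-0.16 to 0.28, p = 0.602) and 0.05 for Hoxd10 (-0.26 to 0.36, p = 0.761) per the authors' deposited table. None of the 7 intervals extended past a 1.31-fold difference.

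Group 11 had wider intervals. Hoxa11 had a log2 fold change of 0.21 (-0.23 to 0.64, p = 0.357), Hoxd11 one of 0.26 (-0.26 to 0.78, p = 0.325) and Hoxc11 one of -0.14 (-0.84 to 0.57, p = 0.703) in the authors' deposited table. The Hoxd11 value belongs to a transcript annotated as processed, and the coding Hoxd11 transcript stood at -0.06 at 0.746 CPM by the authors' deposited table. Hoxa11 shares 35.0% of its exon bases with Hoxa11os on the opposite strand.

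In the middle of the clusters, Hoxd8 had a log2 fold change of 0.19 (-0.07 to 0.46, p = 0.153, adjusted p = 0.794) per the authors' deposited table. Its other transcripts, which overlap it in position and are not independent of it, had 0.18 and 0.17 at 20.0 and 9.03 CPM in the authors' deposited table. Hoxb8 stood at 0.05 (-0.27 to 0.36, p = 0.772) and Hoxc8 at 0.13 (-0.29 to 0.55, p = 0.543) by the authors' deposited table. Hoxb7 had 0.11 (-0.22 to 0.44, p = 0.527) and Hoxa7 0.11 (-0.17 to 0.38, p = 0.447) per the authors' deposited table. Hoxb6 had 0.18 (-0.09 to 0.46, p = 0.194) and Hoxc6 0.08 (-0.23 to 0.38, p = 0.615) in the authors' deposited table.

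Towards the 3′ end, Hoxa5 had the smallest p of all members, with a log2 fold change of 0.26 (-0.06 to 0.59, p = 0.112, adjusted p = 0.794) by the authors' deposited table. Hoxb5 had 0.23 (-0.16 to 0.62, p = 0.248) and Hoxc5 -0.09 (-0.39 to 0.22, p = 0.574) per the authors' deposited table. In group 4 the values were 0.29 for Hoxa4 (-0.14 to 0.71, p = 0.183), 0.07 for Hoxb4 (-0.26 to 0.41, p = 0.662), 0.10 for Hoxc4 (-0.32 to 0.52, p = 0.635) and 0.04 for Hoxd4 (-0.27 to 0.35, p = 0.815) in the authors' deposited table. Hoxa4 had the largest log2 fold change of the 28, at a mean of only 1.11 CPM by the authors' deposited table. In group 3 they were 0.07 for Hoxa3 (-0.31 to 0.44, p = 0.722), 0.03 for Hoxb3 (-0.33 to 0.39, p = 0.855) and 0.02 for Hoxd3 (-0.34 to 0.38, p = 0.908), and Hoxb2 stood at 0.19 (-0.12 to 0.49, p = 0.228) per the authors' deposited table.

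Members under 1 CPM follow by level. Hoxa2 had a log2 fold change of 0.32 (-0.13 to 0.77) and Hoxa6 one of -0.15 (-0.82 to 0.52) in the authors' deposited table. For Hoxd1 the authors' deposited table gives -1.09, with p = 0.303 at 0.0381 CPM. Hoxb1, Hoxa13, Hoxc13 and Hoxd13 are listed there at a log2 fold change and likelihood ratio of 0, so no fold can be stated for them.

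Most members had the same sign, and so did most genes. Of the 28 Hox genes of at least 1 CPM, 25 were positive and 3 negative (Hoxc5, Hoxc9 and Hoxc11), that is 89.3% positive against 71.8% of all genes at that level by the authors' deposited table. All 7 such genes of Hoxa, all 8 of Hoxb and all 6 of Hoxd were positive, and Hoxc had 4 positive and 3 negative. Over the 28 the median log2 fold change was 0.09 (middle 50% from 0.04 to 0.18), against 0.08 (-0.01 to 0.16) over those 13115 genes. In this table the fold change went with transcript length, with a Spearman's rho of -0.51 across the 13115 genes, where genes are not independent replicates. Across the 28 Hox genes, measured in the same libraries, rho was only -0.10. A typical (median) Hox transcript had 2255 bases and the median gene at that level 3048. A smooth trend on length and level, fitted to all those genes, gave the Hox genes a median of 0.11. With it removed their median was -0.02, with 10 positive and 18 negative signs. Over all 36 members the median was 0.07, against 0.04 over all genes.

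**Figure D3:**
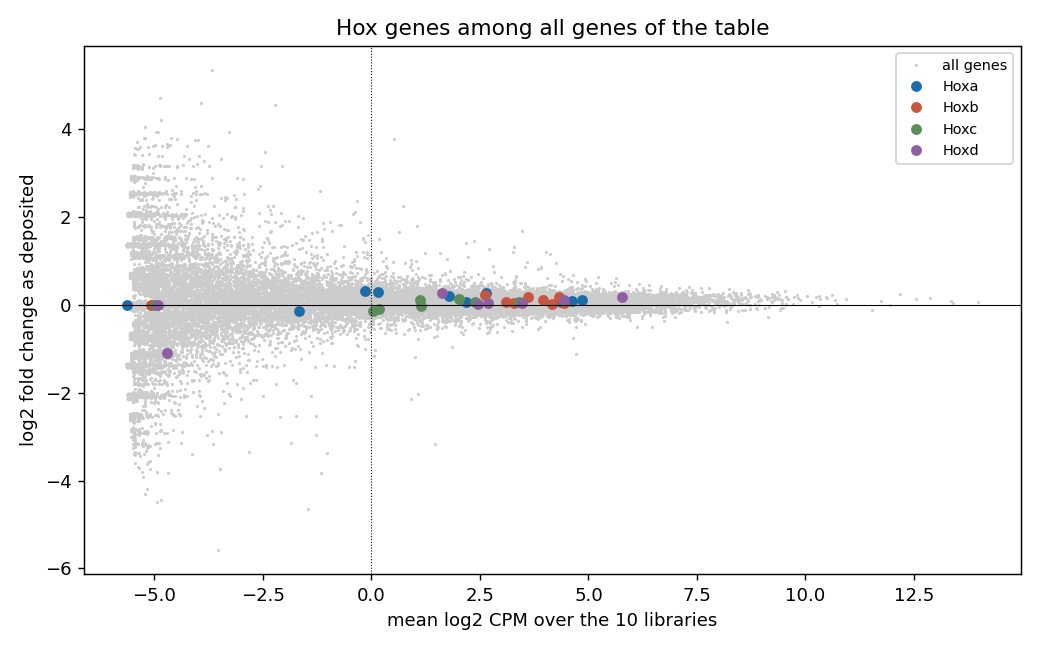
Deposited log2 fold change against mean log2 CPM for all 27876 genes (grey) and Hox genes (coloured by cluster). The dotted line marks 1 CPM, and right of it the 28 Hox genes lie between -0.14 and 0.29, within the grey band.

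Transcripts of the same gene overlap, and how reads common to them were counted is unknown. Their levels therefore cannot show which transcript the reads came from. Of the 36 genes, 23 have more than 1 deposited transcript, and for 5 of them (Hoxa7, Hoxb5, Hoxc5, Hoxc8 and Hoxd11) the most abundant one is not annotated as coding. For Hoxa7 it is a transcript annotated for nonsense-mediated decay, at 28.7 CPM in the authors' deposited table, 3.99 times the longest coding transcript at 7.19 CPM. Only 78 of its bases are in no other deposited Hoxa7 transcript, 71 of them in the exon at chromosome 6, 52220323 to 52220393. The log2 fold change of the coding transcript was 0.04 per the authors' deposited table. The leading Hoxc5 transcript begins inside Hoxc10 and shares 27.0% of its bases with it. The coding Hoxc5 transcript had the opposite sign, 0.36 at 0.955 CPM (p = 0.0732, adjusted p = 0.794) in the authors' deposited table.

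Of all 79 member transcripts, 1 (1.27%) had an unadjusted p under 0.05, against 6.08% of all matched transcripts. It is a 347-base Hoxa3 transcript with a log2 fold change of -0.83 (-1.55 to -0.11, p = 0.0231, adjusted p = 0.788) at 0.176 CPM by the authors' deposited table. The main Hoxa3 transcript, at 4.50 CPM, had 0.07 per the authors' deposited table.

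Hox clusters are dense, so 15 of the 36 leading transcripts share exon bases with another gene, and nothing in the sources used here gives the strand setting of the counting. Hoxb3 shares 70.5% and Hoxb2 58.5% of its bases with Hoxb3os, an antisense RNA, and Hoxa7 shares 28.9% with Hoxaas3. Hoxa3 shares 25.6% and Hoxa4 16.0% of its bases with genes on the opposite strand. Hoxd3 shares 88.0% and Hoxd4 45.1% of its bases on the same strand with other genes, chiefly Gm28230, a gene annotated across both. Gm28230 had 10.04 CPM and a log2 fold change of 0.05 in the authors' deposited table. Levels of these genes are therefore uncertain. No such overlap is annotated for Hoxd8, Hoxd9, Hoxa9, Hoxa10, Hoxb6, Hoxb7, Hoxb8 or Hoxb9.

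Noncoding RNAs of the clusters were measured along with the genes. Of 23 looked for, 17 were measured, 10 positive and 7 negative with a median of 0.17 (57.9% positive and a median of 0.04 over all genes), 1 had an unadjusted p under 0.05 (5.12% of all genes) and none passed the adjusted test by the authors' deposited table. Hotairm1, which is known from human myeloid cells as a regulator of the 3′ Hoxa genes, had that p. Its log2 fold change was 0.32 (0.00 to 0.63, p = 0.0486, adjusted p = 0.794) at 3.32 CPM per the authors' deposited table. Of all 39 other genes inside the cluster spans, 3 had an unadjusted p under 0.05 and 0 an adjusted one. Beside Hotairm1 they were 2 short RNAs of the Hoxa cluster, Gm27868, which lies inside Hotairm1 (log2 fold change 0.38, p = 0.0316, 1.97 CPM), and Gm27543 (0.75, p = 0.0439, 0.636 CPM), in the authors' deposited table. Both were named after their values were seen. Hoxd3os1 followed with 0.27 (p = 0.0910, 1.96 CPM) and Hoxb5os with 0.22 (p = 0.107, 6.54 CPM) in the authors' deposited table. Hoxb3os had 0.13 at 5.98 CPM, Hoxa11os 0.18 at 2.24 CPM and Gm53, next to Hoxb9, -0.24 at 4.14 CPM by the authors' deposited table. Below 1 CPM, Halr1 had 0.642, Hoxaas3 0.347 and Hoxaas2 0.124 CPM per the authors' deposited table. Hotair, which in human cells has been tied to silencing of the Hoxd cluster, and Hottip, next to Hoxa13, were listed at 0.0778 and 0.0216 CPM in the authors' deposited table.

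The clusters also carry microRNA genes, whose mature sequences are shown because their known targets include Hox transcripts. The seed, bases 2 to 8, is in capitals, and sequences are from RefSeq (GRCm38.p6). The loci are chr11:96317186-96317208 (+) for miR-10a, chr2:74726074-74726096 (+) for miR-10b, chr11:96265187-96265208 (+) for miR-196a and chr6:52230129-52230150 (-) for miR-196b.
miR-10a-5p: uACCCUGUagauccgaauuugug
miR-10b-5p: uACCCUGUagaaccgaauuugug
miR-196a-5p: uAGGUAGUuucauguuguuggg
miR-196b-5p: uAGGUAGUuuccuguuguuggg
The miR-10 pair share a seed, as do the miR-196 pair. In the mouse, miR-196a is known to direct cleavage of Hoxb8 mRNA through a nearly complete match. That site was found by search in the Hoxb8 3′ UTR at chr11:96284888-96284909 (+, GRCm38), with 21 of 22 bases paired to miR-196a and the remaining 1 a G and U wobble that falls in the seed match, in capitals.
Hoxb8 site: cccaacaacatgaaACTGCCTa
Exact seed matches for miR-196 were found in the 3′ UTR of the longest coding transcript of 8 of the 36 Hox genes (22.2%), among them Hoxa5, Hoxa7, Hoxa9, Hoxb6 and Hoxb7, against 6.06% of 21022 coding genes. For miR-10 they were found in 4 (11.1%), among them Hoxa3 and Hoxb3, against 12.3% of all. The median length of these UTRs was 963 bases in Hox genes and 935 in all. Mature microRNAs were not measured here. Reads over the hairpin of Mir196a-1 had 0.563 CPM and a log2 fold change of -0.24 (p = 0.275), while Mir196b, Mir10a and Mir10b were listed under 0.04 CPM by the authors' deposited table. Hoxb8, with this site, was among the 6 highest Hox genes per kb.

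HOX proteins bind DNA together with PBX, MEIS and PKNOX partners. All 9 partner genes were measured, 7 of them positive and 2 negative, and none had an unadjusted p under 0.05 per the authors' deposited table. The shares over all genes were 57.9% for a positive sign and 5.12% for such a p. Pbx2 had 21.9 CPM and a log2 fold change of 0.13 (-0.10 to 0.36), and Pknox1 10.5 CPM and 0.04 (-0.17 to 0.25) by the authors' deposited table. The smallest p-value belonged to Pbx4, with a log2 fold change of 0.44 (-0.24 to 1.11, p = 0.203) at 0.538 CPM in the authors' deposited table. Among partners of at least 1 CPM the smallest p-values were those of Pbx2 (0.257), Pknox2 (log2 fold change -0.17, p = 0.393) and Pbx3 (0.10, p = 0.443) per the authors' deposited table. The median of the 8 partners of at least 1 CPM was 0.07.

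**Figure D4:**
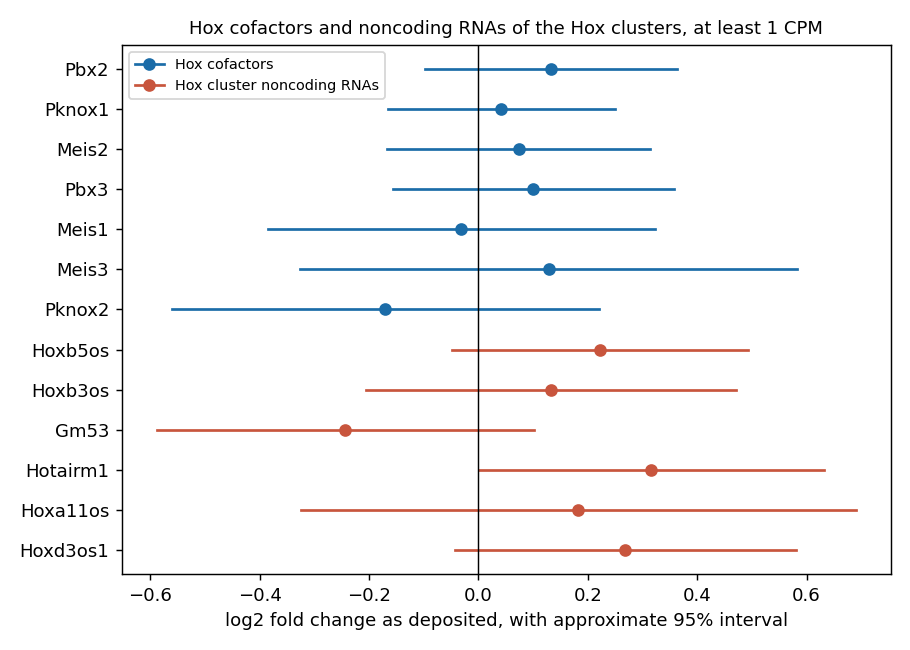
Deposited log2 fold change with approximate 95% interval for cofactors of HOX proteins (blue) and noncoding RNAs of the Hox clusters (red) of at least 1 CPM, ordered by level within each list. Every cofactor interval drawn crosses 0, and the Hotairm1 interval begins at 0.00.

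Polycomb and trithorax proteins keep Hox genes off and on after their pattern is set. All 26 such regulators looked for, with the loop anchors Ctcf and Rad21 among them, had at least 1 CPM, with 18 positive, 8 negative, a median of 0.05, 1 at an unadjusted p under 0.05 and none called in the authors' deposited table. Over all genes of at least 1 CPM, 71.8% were positive, 4.09% had such a p and the median was 0.08. Jarid2, which helps recruit Polycomb repressive complexes, came first by p, with a log2 fold change of -0.40 (-0.75 to -0.05, p = 0.0269, adjusted p = 0.794) at 23.4 CPM by the authors' deposited table. Next was the H3K27 demethylase Kdm6b at -0.22 (p = 0.0905) per the authors' deposited table. The most abundant, Rad21, Rbbp4 and Rbbp7, at 85.0, 82.4 and 51.8 CPM, had 0.09, 0.16 and 0.13 in the authors' deposited table.

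In the embryo HOX11 proteins act with EYA1 and PAX2 to switch on Six2 and Gdnf. In these kidneys Six2 was listed at 0.0265, Gdnf at 0.0813 and Eya1 at 0.101 CPM, while Pax2 had 6.80 and Pax8 30.8 CPM by the authors' deposited table. Of the 16 kidney regulators, 9 were positive and 7 negative with a median of 0.04, 1 had an unadjusted p under 0.05 and none was called per the authors' deposited table. Over all genes 57.9% were positive, 5.12% had such a p and the median was 0.04. Wnt4, which drives tubule formation, came first by p, with a log2 fold change of 0.87 (0.08 to 1.65, p = 0.0299, adjusted p = 0.794) at 11.6 CPM in the authors' deposited table. Sall1 (-0.19, p = 0.103, 18.7 CPM) and Wt1 (0.17, p = 0.258) came next by the authors' deposited table.

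Of 20 ParaHox genes and cluster neighbours looked for, 14 were measured, 6 positive, 7 negative and the other at 0. None had an unadjusted p under 0.05 per the authors' deposited table. Across all genes 57.9% were positive and 5.12% had such a p. The neighbours Mtx2, beyond the 3′ end of Hoxd, and Hibadh, farther out on the 5′ side of Hoxa, had log2 fold changes of 0.13 and 0.08 at 31.1 and 230 CPM, and Cbx5, near Hoxc, had -0.08 at 47.8 CPM, with Skap2 at 0.07 and 27.0 CPM, in the authors' deposited table. The ParaHox genes Cdx1 and Cdx4, by contrast, were listed at 0.0201 and 0.0398 CPM by the authors' deposited table.

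Among cell type markers, 9 of 10 collecting duct genes were positive with a median of 0.19, 4 of 8 stromal genes with a median of 0.00, and all 5 endothelial genes with a median of 0.11 per the authors' deposited table. All 6 urothelial, all 6 nerve and all 5 adipocyte genes were positive, with medians of 0.77, 0.93 and 3.77, and summed levels of 4.79, 3.54 and 23.4 CPM in the authors' deposited table. Of the adipocyte sum, 21.7 CPM was Fabp4, with a log2 fold change of 0.19 (p = 0.282), and the other 4 genes, from 3.15 to 4.61, lay between 0.0583 and 1.43 CPM in the authors' deposited table. Of the 5 blood and immune genes 4 were positive, with a median of 0.16. Unadjusted p-values under 0.05 were held by 4 adipocyte, 3 nerve and 1 urothelial gene, and none of these markers was called in the authors' deposited table. The shares over all genes were 5.12% for such a p and 57.9% for a positive sign, or 71.8% for a positive sign at 1 CPM or more. Their part in the Hox values was not tested.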

How the data were processed

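Whole-kidney RNA was sequenced from 5 quinolinic acid and 5 vehicle mice, grouped by treatment label. FastQC 0.11.2, STAR 2.5.3a, Subread 1.4.6 with its featureCounts, and edgeR are the tools, and mm10 the build, per the submitters' processing notes. Annotation release, filters, strand option and depths are not given in the sources used here. For each of 85107 transcripts the authors deposited, per the file headers, the log2 fold change, mean log2 CPM, likelihood-ratio score, p-value and adjusted p. The deposited p-value equals the chi-square tail of the score on 1 degree of freedom, and the adjusted p the Benjamini-Hochberg value over all transcripts.

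With no values per library, calls rest on the deposited likelihood-ratio test at an adjusted p under 0.05. Transcripts were matched without version to GENCODE vM21 (98.0%). The approximate standard error is the size of the deposited log2 value over the root of its likelihood ratio, and 1.96 of them on either side give the 95% interval. Trends were removed by lowess (fraction 0.5, 3 passes) on log2 length and level, tested on simulated data. Members and lists were chosen with earlier results of these data known. Hox genes are named with their levels; of each related list, the 3 genes with the smallest p and the 3 with the highest level among those of at least 1 CPM are, with every cluster noncoding RNA of at least 0.1 CPM. Some genes under this rule are not reported here. Genes named beyond that were chosen after their values were seen. P-values measure only the spread between these samples. Alternatives were other thresholds, adjustments, transcripts, a level filter and the trend removal. Python 3.11.15, numpy 2.4.6, pandas 2.3.3, scipy 1.17.1, statsmodels 0.14.6 and matplotlib 3.10.9 were used.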

Additional observations from a re-analysis of the deposited data

How the results depend on the processing

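The count of 0 Hox genes called was the same at a deposited adjusted p under 0.1, at an unadjusted p under 0.05, with adjustment over 1 transcript per gene, over genes of at least 1 CPM, and after removal of the length and level trend. The median log2 fold change of 0.07 ranged from 0.03 to 0.09 over the level filters and the other choices of transcript. After trend removal it was -0.0256, and the number of positive genes among the 28 of at least 1 CPM was 10 in place of 25. The single log2 fold changes whose sign turned after trend removal were -0.0256 for Hoxa3, -0.0195 for Hoxa7, -0.0243 for Hoxa10, -0.0376 for Hoxb3, -0.0231 for Hoxb4, -0.0493 for Hoxb7, -0.0504 for Hoxb8, -0.0749 for Hoxb9, -0.0236 for Hoxc4, -0.0602 for Hoxc6, -0.0705 for Hoxc10, -0.0559 for Hoxd3, -0.0591 for Hoxd4, -0.0163 for Hoxd9 and -0.0846 for Hoxd10. With the longest coding transcript they were -0.0431 for Hoxc4, 0.358 for Hoxc5 and -0.0617 for Hoxd11. All of these values have intervals or adjusted p (0.794 to 1.00) that leave the sign undetermined, and the cause of each turn beyond the trend or transcript itself was not tested. No paired analysis was possible because the file holds a finished comparison without values per library, and leaving out single libraries was not run for the same reason. Depth per library is unknown, and of the 5 Hox genes under 0.1 CPM, 4 have no interval and that of Hoxd1 is too wide to bound a change.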
